A study of Homo sapiens with 8 samples.

Results

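Peaks of 7 DNA-associated proteins were examined at 7 genes of glucose and energy supply in 697 cells, a human cell line established from a pre-B leukaemia. The genes were SLC2A1, SLC2A3 and SLC2A6, HK2, TXNIP, NR3C1 and INSR, and a peak was counted for a gene when it overlapped the gene's window on build hg19 by at least 1 bp. The windows together spanned 605 kb. They held 122 of the 159806 deposited peaks, and these fell into 52 of the 74123 regions obtained by merging overlapping peaks of all lists. Membership was fixed by position alone, without use of peak heights.

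Chromatin immunoprecipitation followed by sequencing (ChIP-seq) recovers the DNA to which a protein is attached and counts its sequenced fragments, here called tags. The cells were untreated and grew in RPMI-1640 medium with fetal bovine serum, and each library came from the same line with a different antibody: IKAROS, AIOLOS, MTA2, HDAC2, Mi2, OCT2 or OCAB. A further library, of input DNA, was made without antibody and enters through the input tags, the fold over input and the p-value over input that the authors deposited for each peak; whether it was the input for every list is not stated. Peak lists carry no expression values, so the pre-B identity of the line could not be checked against markers. There was 1 library per antibody and so no replicate, and the intervals given below cover counting error only; tags were amplified by PCR without molecular identifiers and are not independent molecules.

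Glucose enters cells through facilitative transporters, of which SLC2A1 encodes GLUT1, SLC2A3 encodes GLUT3, and SLC2A6 encodes GLUT6, a transporter found mainly inside the cell. HK2 encodes hexokinase 2, which phosphorylates glucose and so traps it for glycolysis. TXNIP is an arrestin-like protein that is induced by glucose and lowers uptake by promoting removal of glucose transporters from the cell surface. NR3C1 encodes the glucocorticoid receptor, the target of the steroids used against lymphoid leukaemia, and INSR encodes the insulin receptor. In pre-B leukaemia, IKAROS has been described as a factor that restrains glucose supply, with TXNIP and NR3C1 among the genes through which it does so. IKAROS and AIOLOS are zinc-finger factors of lymphocytes; MTA2, HDAC2 and Mi2 belong to NuRD, which combines nucleosome remodelling with histone deacetylation; OCT2 binds octamer DNA and OCAB is its B-cell coactivator.

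The letters under the peaks could not be read, because the sequences at hand are on GRCh38.p14 and the peaks on hg19. Promoter sequences of 6 of the 7 genes were taken from RefSeq on GRCh38.p14, as the 250 bases before an annotated start; SLC2A3 had no entry. They are shown for TXNIP, INSR and HK2 as the letters on which glucose-responsive and IKAROS-type motifs can be seen, and whether any peak lies on them was not determined. Both strands were searched for GGGAA, the core of IKAROS-family sites, for the octamer ATGCAAAT, for the E-box CACGTG, and for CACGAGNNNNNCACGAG, the carbohydrate response element described for TXNIP; capitals mark the matches, read 5′ to 3′ on the gene's strand, and no matches of different motifs overlap.
TXNIP promoter, GRCh38.p14 chr1:145996580-145996829, minus strand: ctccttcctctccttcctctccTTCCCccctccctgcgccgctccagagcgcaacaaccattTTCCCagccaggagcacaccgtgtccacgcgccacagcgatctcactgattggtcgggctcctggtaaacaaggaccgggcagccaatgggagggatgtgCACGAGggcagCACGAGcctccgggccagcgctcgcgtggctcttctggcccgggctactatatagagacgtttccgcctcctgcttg
INSR promoter, GRCh38.p14 chr19:7294415-7294664, minus strand: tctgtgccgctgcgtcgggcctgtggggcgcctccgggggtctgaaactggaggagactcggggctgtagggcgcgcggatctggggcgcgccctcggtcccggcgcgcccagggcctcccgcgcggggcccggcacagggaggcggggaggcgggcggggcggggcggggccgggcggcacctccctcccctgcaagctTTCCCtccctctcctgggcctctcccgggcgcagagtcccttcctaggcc
HK2 promoter at an internal start, GRCh38.p14 chr2:74834920-74835169, plus strand: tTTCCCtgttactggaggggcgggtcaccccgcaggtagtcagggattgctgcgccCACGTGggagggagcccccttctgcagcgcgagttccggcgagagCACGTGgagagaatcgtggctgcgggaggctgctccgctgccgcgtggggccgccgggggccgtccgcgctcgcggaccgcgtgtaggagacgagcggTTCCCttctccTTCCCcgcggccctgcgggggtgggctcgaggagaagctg

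The TXNIP promoter shown, that of the outermost start, held the spaced CACGAG repeat once, and 2 of 35116 RefSeq promoters of the same length did so. It also held 2 GGGAA cores, both on the opposite strand (TTCCC). The INSR promoter held 1 core, as did the SLC2A6 promoter, and the 7 NR3C1 promoters held 1 or 2 each. The internal HK2 promoter held 2 E-boxes and 3 cores, while the outermost HK2 promoter, the second TXNIP promoter (chr1:145995745-145995994) and the SLC2A1 promoter held none of the 4 motifs. GGGAA was present in 59.0% of all promoters, the E-box in 6.34% and the octamer in 1.63%, and no octamer was found in the 14 promoters of the 6 genes. The repeat was added to the search after the sequences had been seen.

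IKAROS, AIOLOS and MTA2 each had at least 1 peak in all 7 windows. For MTA2 this does not hold at a limit of 8-fold over input, since its only NR3C1 peak was 5.27-fold. HDAC2 had peaks at 5 genes, with none at SLC2A6 and HK2. OCT2 was found at 4 genes (SLC2A1, SLC2A3, TXNIP and INSR), Mi2 at HK2, NR3C1 and INSR, and OCAB at SLC2A1, NR3C1 and INSR. The 8-fold limit leaves no HDAC2 or OCAB peak at SLC2A1. A p-value limit of 1e-10 over input leaves no HDAC2 peak at NR3C1 and no OCT2 peak at SLC2A1. By list, the windows held 34 IKAROS peaks, 30 of AIOLOS, 19 of MTA2, 13 of HDAC2, 12 of Mi2, 8 of OCT2 and 6 of OCAB. A list shows only peaks past the authors' thresholds, so the lack of a peak is not a measure of zero binding.

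**Figure D1:**
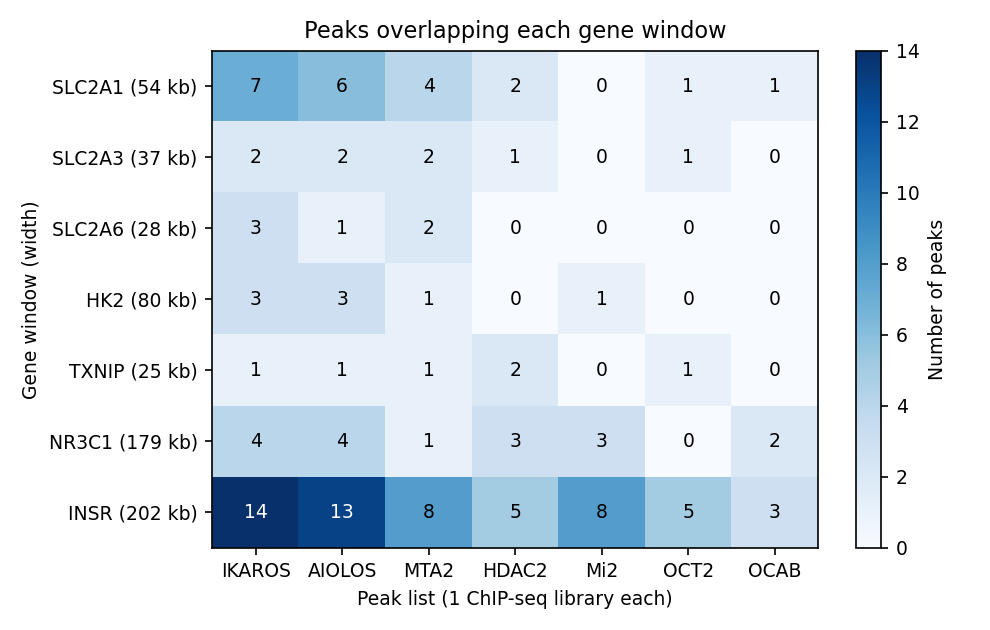
Number of peaks of each list (columns) that overlap each gene window (rows, with the window width in kb). INSR has the most peaks in every list, up to 14 of IKAROS, and the IKAROS, AIOLOS and MTA2 columns hold no 0.

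INSR was the most densely occupied of the large loci. Its window held 25 regions in 202 kb, or 12.4 per 100 kb, and 0.797% of tiles of that width laid side by side along the span of all peaks held as many regions. SLC2A6 had 14.3 regions per 100 kb, SLC2A1 had 13.0 and TXNIP had 12, in windows of 28, 54 and 25 kb; tiles as rich made up 4.42%, 3.08% and 7.82%. The densities of SLC2A3 (5.41), HK2 (5.00) and NR3C1 (3.91) were lower, and 22.1% to 27.3% of tiles held as many. The span as a whole had 2.51 regions per 100 kb, and it includes long stretches without genes. The genes were chosen with earlier results of these data known, and the basis of the window limits is not stated. The tile shares are therefore descriptions and not tests.

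The share of the 52 regions that held each protein was set against the share of all merged regions. IKAROS was held by 33 regions (63.5%, Wilson 95% interval 49.9 to 75.2), against 72.8% of all merged regions. AIOLOS was held by 29 (55.8%, 42.3 to 68.4; 51.4% of all), and both by 26 (50.0%, 36.9 to 63.1; 44.4% of all). A NuRD subunit was found in 31 regions (59.6%, 46.1 to 71.8; 53.4% of all), with MTA2 in 19 (36.5%, 24.8 to 50.1; 38.8% of all), HDAC2 in 13 (25%, 15.2 to 38.2; 21.8% of all) and Mi2 in 12 (23.1%, 13.7 to 36.1; 13.9% of all). OCT2 was held by 8 regions (15.4%, 8.01 to 27.5; 11.0% of all), OCAB by 6 (11.5%, 5.40 to 23; 5.99% of all) and either of them by 11 (21.2%, 12.2 to 34.0; 14.4% of all). Regions with 5 or more proteins numbered 5 (9.62%, 4.18 to 20.6), beside 7.85% of all regions, and 19 held a single protein (36.5%, 24.8 to 50.1), beside 44.7%. Each of these intervals includes the share of the whole series; the regions of a gene are neighbours on 1 chromosome, and the shares were not tested.

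**Figure D2:**
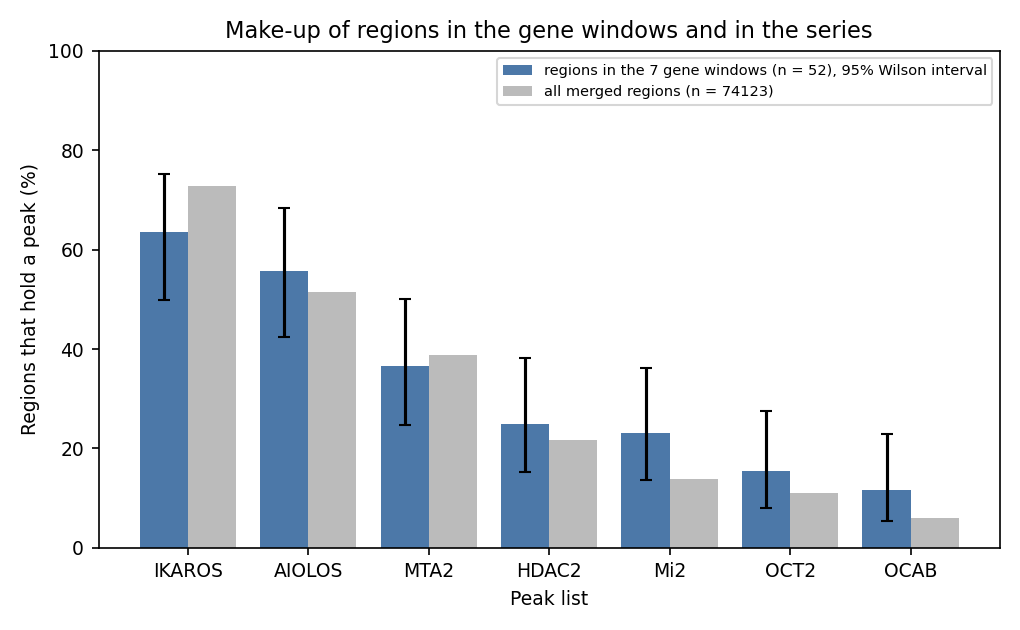
Percentage of regions that hold a peak of each list, for the 52 regions in the gene windows (blue, with 95% Wilson intervals) and for all 74123 merged regions (grey). The grey bar falls within the blue interval for all 7 lists.

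IKAROS, AIOLOS and MTA2 were the most frequent proteins at the transporter genes, in the same order as over all merged regions. The transporter windows held 13 regions, of which 12 held IKAROS, 9 held AIOLOS and 8 held MTA2; HDAC2 was found in 3, OCT2 in 2, OCAB in 1 and Mi2 in none. All but 1 of the 8 regions with a NuRD subunit also held IKAROS or AIOLOS. The exception was an MTA2 peak of height 9.20 at SLC2A6. In the series, 32.6% of regions with a subunit held neither IKAROS nor AIOLOS, and the difference was not tested.

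SLC2A1 (window chr1:43381000-43435000) held 7 regions, and every one had an IKAROS peak. The richest lay at chr1:43418096-43418527 and held 6 proteins, all but Mi2. Height is the number of tags in a peak per 10 M tags of its library. The MTA2 height there was 44.2 (Poisson 95% interval 36.0 to 53.7), in the top 6.19% of the MTA2 list. IKAROS stood at 42.3 (34.4 to 51.5), in the top 21.9% of its list, AIOLOS at 35.5 and HDAC2 at 22.9. The OCT2 height of 8.18 (4.58 to 13.5) and the OCAB height of 10.8 (6.50 to 16.9) were low, ranking in the top 89.9% and 79.2% of their lists. Relative to its own list, then, MTA2 was the highest of the 6 proteins in this region and OCT2 the lowest.

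The highest IKAROS peak of SLC2A1 lay elsewhere, in chr1:43397690-43398046. IKAROS reached 117.2 (104 to 132) and AIOLOS 94.0 (79.6 to 110), with MTA2 at 43.3 and HDAC2 at 30.2 and no OCT2 or OCAB. All 4 proteins ranked in the top 4.15% to 6.54% of their lists. A cluster of 3 regions between chr1:43388709 and 43390919 held IKAROS and AIOLOS, with MTA2 (height 27.6) in the middle one alone. The regions at the other end, chr1:43423331-43423730 and chr1:43424879-43425151, had low IKAROS heights of 11.1 and 10.3.

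SLC2A3 (window chr12:8062000-8099000) held 2 regions that lay 2716 bp apart. In chr12:8085854-8086192, 5 proteins were present. IKAROS had a height of 49.2 (40.6 to 59.1) and AIOLOS 33.6 (25.2 to 43.8), OCT2 19.1 (13.3 to 26.6), HDAC2 15.6 (9.09 to 25) and MTA2 11.8 (7.78 to 17.2). The second region, chr12:8088909-8089214, had IKAROS at 45.3, AIOLOS at 31.7 and MTA2 at 9.63, with 1 input tag under the IKAROS peak. IKAROS thus ranked near the top 18.0% to 20.1% of its list in both, whereas MTA2 was below its list median of 16.2. SLC2A14, a close paralogue, is the neighbouring gene in RefSeq, and how reads that match both copies were placed is not given in the sources used here.

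SLC2A6 (window chr9:136326000-136354000) had 4 regions and the lowest IKAROS maximum of the transporters. Its IKAROS peaks had heights of 11.1, 12.8 and 18.8, all below the list median of 20.5. AIOLOS had 1 peak (height 13.1) and MTA2 had 2 (9.20 and 14). In the region chosen by the naming rule, chr9:136344539-136345044, MTA2 (14, 9.58 to 19.8) and IKAROS (12.8, 8.64 to 18.3, and 4.54-fold over input) met without AIOLOS. At chr9:136351043-136351293 and chr9:136351399-136351671, MTA2 and IKAROS peaks lay 105 bp apart without overlapping.

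HK2 (window chr2:75050000-75130000) held 4 regions of 2 proteins each, with centres 9.29 to 21.2 kb into the 80 kb window. IKAROS and AIOLOS occurred together in 3 of them. The IKAROS heights were 24.0, 19.7 and 28.2 and the AIOLOS heights 16.2, 30.5 and 24.3, in the order of position. The region chosen by the naming rule, chr2:75071102-75071393, had IKAROS at 28.2 (21.8 to 35.9) and AIOLOS at 24.3 (17.3 to 33.2). Between the first and the second pair lay chr2:75060514-75061023, where MTA2 (15.8, 11.1 to 21.9) and Mi2 (16.2, 10.9 to 23.1) were found without IKAROS, AIOLOS or HDAC2. This make-up, MTA2 and Mi2 alone, was shared by 152 of all merged regions (0.205%). Other exact make-ups in the 7 windows were rarer, such as AIOLOS with Mi2 alone at INSR (64 of all merged regions). At HK2, then, the 1 region with a NuRD subunit held neither IKAROS nor AIOLOS, as did 32.6% of such regions in the series. Each of the other 6 genes had at least 1 region with a subunit and IKAROS or AIOLOS. At a p-value limit of 1e-10 over input, SLC2A6 loses the IKAROS peak of its only such region. NR3C1 loses its 3 HDAC2 peaks at that limit, so neither gene keeps such a region.

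TXNIP (window chr1:145428000-145453000) had a single strong site. In chr1:145438089-145438443 the IKAROS height was 135.1 (121 to 151) and the AIOLOS height 132.6 (115 to 152). These ranked in the top 3.06% and 2.79% of the lists, and the signals stood 71.8-fold and 70.4-fold over input. MTA2 was present at 22.8 (17.0 to 29.9) and HDAC2 at 15.6 (9.09 to 25), in the top 27.0% and 38.6%. The HDAC2 peak, on 17 tags, had a p-value of 2.1e-10 over input and is lost at a limit of 1e-10. No other IKAROS or AIOLOS peak was found in the 25 kb window.

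An OCT2 peak of height 10.9 flanked this site on one side, at chr1:145437700-145437974, and an HDAC2 peak of height 14.7 on the other, at chr1:145438667-145438985. The gaps were 114 and 223 bp, and the 3 regions together covered 1286 bp. The NuRD subunits at the TXNIP site thus ranked lower in their lists than IKAROS and AIOLOS did in theirs, whereas at the site with the highest SLC2A1 IKAROS peak all 4 ranked alike. The HDAC2 peaks of both sites, 7.79-fold over input at TXNIP and 6.72-fold at SLC2A1, are lost at an 8-fold limit. Whether the balance differs between the genes was not tested.

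**Figure D3:**
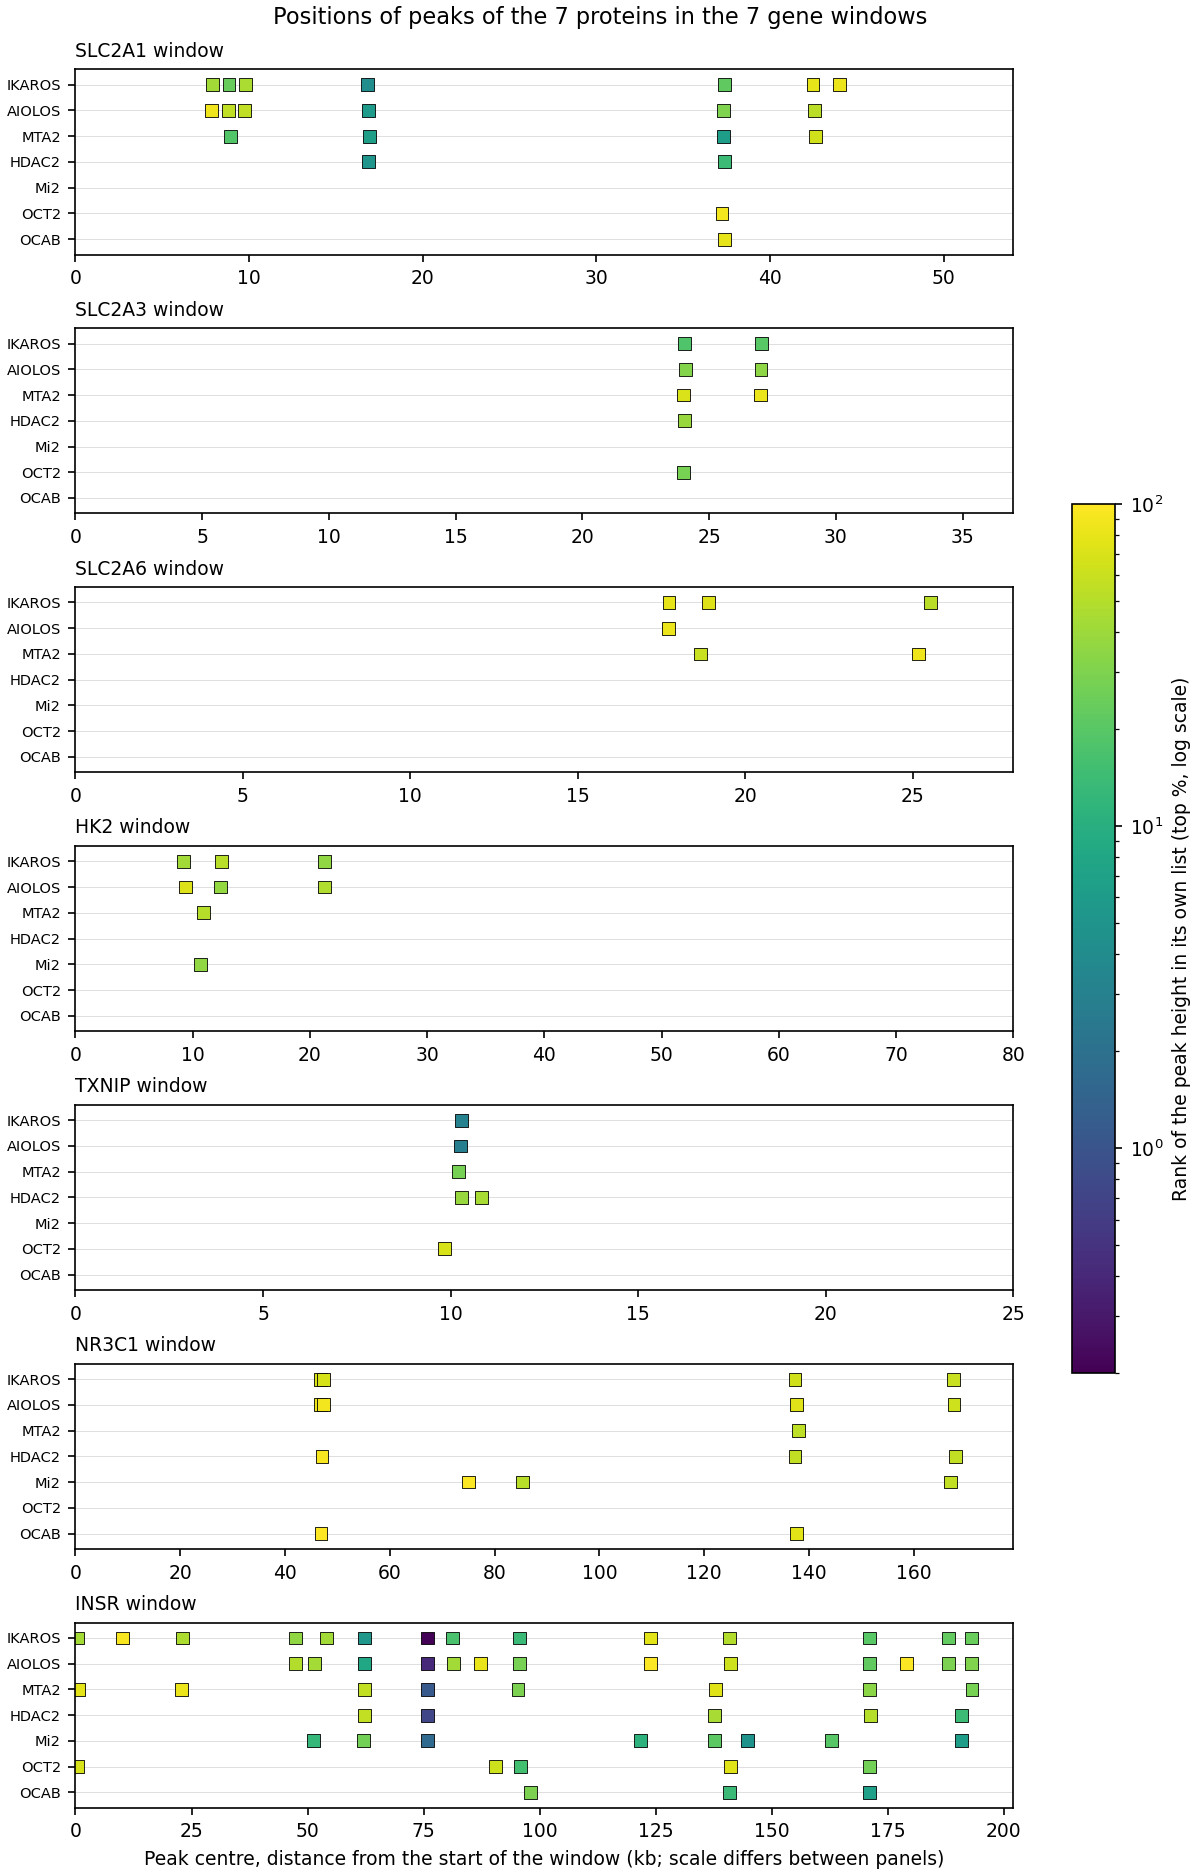
Positions of all 122 peaks by list (rows) along each gene window, as distance of the peak centre from the window start in kb; colour gives the rank of the height in its own list on a log scale, dark being highest. The darkest column is the INSR region at 75.9 kb, where 5 proteins coincide, and TXNIP has 1 column of peaks near 10 kb.

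NR3C1 (window chr5:142647000-142826000) was occupied at low height throughout its 179 kb window. Its 4 IKAROS peaks had heights of 13.3, 13.7, 15.4 and 16.7, and its 4 AIOLOS peaks 13.1, 11.8, 15.6 and 18.7. All 8 lay below their list medians of 20.5 and 23.7. They fell into 3 regions, each of which also held HDAC2 and none of which held MTA2. In the series, 22.4% of IKAROS peaks lay with HDAC2 and 41.1% with MTA2, and the difference was not tested. With peaks grouped by centres within 100 bp, HDAC2 stays with IKAROS at chr5:142784177-142784708 alone. The HDAC2 heights of 9.16, 12.8 and 12.8 rested on 10, 14 and 14 tags, and none of these HDAC2 peaks met a p-value of 1e-10 over input, the limit that 4 of the other lists meet throughout.

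OCAB was found in 2 of the NR3C1 regions without OCT2. Over all 7 genes, 3 of the 6 OCAB peaks (50%, 18.8 to 81.2) lay with OCT2, beside 42.3% in the series. In chr5:142693614-142694528, OCAB had a height of 7.41 (3.95 to 12.7) from 13 tags, and the region held 2 IKAROS and 2 AIOLOS peaks side by side. At chr5:142784177-142784708 the OCAB height was 11.4 (7.06 to 17.4), with IKAROS at 15.4, AIOLOS at 15.6 and HDAC2 at 12.8. IKAROS, AIOLOS, HDAC2 and OCAB without the other proteins was a rare make-up, present in 46 of all 74123 merged regions, and NR3C1 accounted for 2 of these. This combination was singled out after its counts had been seen, and it loses HDAC2 at the stricter p-value. It also rests on the overlap rule, since grouping by centres within 100 bp splits both regions. The HDAC2 and OCAB centres lay at 142694050 and 142693859 in the first region, and at 142784336 and 142784573 in the second.

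The other NR3C1 regions held NuRD subunits singly. Mi2 peaks of height 8.64, 14 and 13.5 stood alone at chr5:142721870-142722216, chr5:142732105-142732451 and chr5:142813861-142814207. The only MTA2 peak (14.9, 10.3 to 20.8), at chr5:142784971-142785221, lay 262 bp beyond the second OCAB region. It was 5.27-fold over input and is lost at an 8-fold limit. All 7 regions of NR3C1 held at least 1 NuRD subunit, beside 53.4% of all merged regions, but no 2 subunits shared a region. In the series, 66.2% of HDAC2 peaks and 41.7% of Mi2 peaks lay with MTA2. The regions are few and neighbours, and the differences were not tested. In 3 of the 7 NR3C1 regions the subunit was HDAC2, so 4 regions with a subunit are left at a p-value limit of 1e-10.

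INSR (window chr19:7102000-7304000) held the highest peak of every list at these genes. The region chr19:7177684-7178043 had IKAROS at 411.9 (386 to 439), AIOLOS at 320.0 (293 to 349), MTA2 at 81.0 (69.8 to 93.5), HDAC2 at 48.6 (36.4 to 63.6) and Mi2 at 42.7 (33.8 to 53.2). All 5 proteins were near the top of their lists: IKAROS in the top 0.208% (rank 112 of 53948), AIOLOS 0.404%, HDAC2 0.738%, MTA2 1.12% and Mi2 1.68%. No OCT2 or OCAB peak was present. The next highest of the 34 IKAROS peaks was that of TXNIP, at 135.1.

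A second INSR region with the same 5 proteins lay at chr19:7163909-7164452. IKAROS had a height of 101.4 (88.9 to 115) and AIOLOS 79.7 (66.5 to 94.8), while Mi2 (17.8) was in the top 26.9% of its list and MTA2 (14.4) and HDAC2 (12.8) lay below the medians of theirs. The fold over input of 215 for this IKAROS peak rests on 1 input tag. All 3 NuRD subunits also met at chr19:7239478-7239993, with Mi2 at 19.5, HDAC2 at 14.7 and MTA2 at 11.4 and no IKAROS or AIOLOS. Regions with all 3 subunits thus numbered 3 of 52, all at INSR, beside 3.92% of the merged regions of the series. With peaks grouped by centres within 100 bp, only chr19:7177684-7178043 keeps all 3. The Mi2 peak of the second region and the MTA2 peak of the third then fall apart from the other subunits.

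OCT2 and OCAB met at 2 INSR regions. At chr19:7272827-7273368, 6 proteins were present, as at SLC2A1, and OCAB was high: its height of 55.3 (44.8 to 67.5) was in the top 6.76% of its list. OCT2 stood there at 19.6 (13.7 to 27.1), IKAROS at 45.8, AIOLOS at 43.6, MTA2 at 20.1 and HDAC2 at 13.7, on 15 tags with a p-value of 1.94e-06. At chr19:7242783-7243214, OCAB (36.5, 28.1 to 46.6) and OCT2 (10.4, 6.26 to 16.2) lay with IKAROS (20.5) and AIOLOS (18.7) and no NuRD subunit. The highest OCT2 peak of the 8, at 25.6 (18.8 to 34.0), was in chr19:7197489-7198004 with IKAROS at 59.9 and AIOLOS at 37.3 but no OCAB; an MTA2 peak of height 21.9 lay 44 bp before this region without overlapping it. An OCAB peak of height 21.7 stood alone 1834 bp beyond it.

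The remaining INSR regions held fewer proteins. IKAROS and AIOLOS met without other proteins in 4 regions, where IKAROS heights ran from 12 to 51.3 and AIOLOS heights from 9.96 to 36.1. Near the upper end of the window, at chr19:7294941-7295234, the pair (39.3 and 34.2) met MTA2 (22.3, 16.6 to 29.3). IKAROS and MTA2 met without AIOLOS at 2 regions, 1 of them with OCT2 (10.9), and 2 regions held IKAROS alone, 2 AIOLOS alone and 1 OCT2 alone.

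Most Mi2 peaks were at INSR. Of the 12 Mi2 peaks, 8 were at INSR, with heights from 17.8 to 42.7 that all exceeded the list median of 14.6. Those at chr19:7223494-7223840 (23.8), chr19:7246633-7246979 (31.3) and chr19:7264720-7265066 (20) stood alone. Mi2 met HDAC2 without MTA2 at chr19:7292773-7293119 (Mi2 28.6, HDAC2 22.9), and met AIOLOS without IKAROS at chr19:7153045-7153559, where the Mi2 peak was 4.38-fold over input. Over all 7 genes, 6 of the 12 Mi2 peaks (50%) stood alone, beside 42.7% of all Mi2 peaks in the series. In a region with IKAROS lay 2 of the 12 (16.7%, 4.70 to 44.8), against 47.7% in the series. The shares with AIOLOS (25%), MTA2 (33.3%) and HDAC2 (33.3%) stood beside 42.4%, 41.7% and 34.5%. None lay with OCT2 or OCAB, beside 19.2% and 7.93%. The regions are few and share loci, and the differences were not tested.

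**Figure D4:**
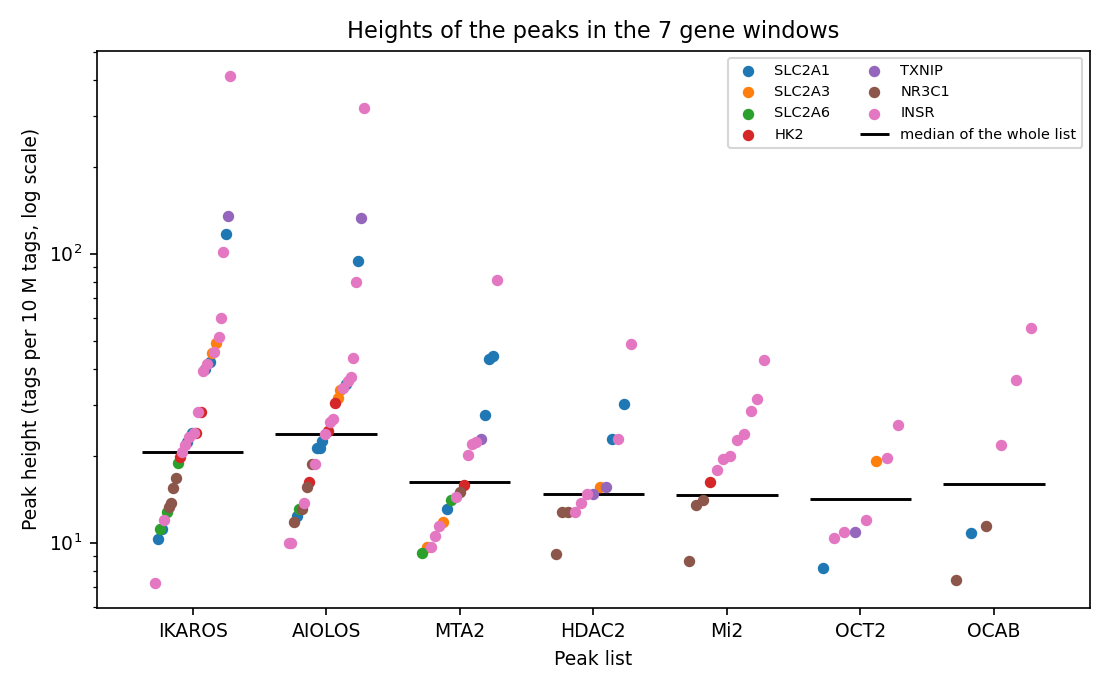
Heights of the 122 peaks, as tags per 10 M library tags on a log axis, by list, ordered by height within each and coloured by gene; black lines give the median of each whole list. INSR supplies the highest point in all 7 lists, and 7 of the 12 Mi2 peaks, all at INSR, are in the top 25% of their list.

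Heights were set against those of whole lists. The 34 IKAROS peaks had a median of 24.0 and the list 20.5; 13 of them were in the top 25% and 12 below the list median. For AIOLOS the medians were 24.0 and 23.7, for MTA2 14.9 and 16.2, for HDAC2 14.7 and 14.7, for OCT2 11.5 and 14.2, and for OCAB 16.6 and 16.0. For Mi2 the medians were 19.8 and 14.6, and 7 of the 12 peaks were in the top 25%, all of them at INSR. The 4 Mi2 peaks at the other genes had heights of 16.2 at HK2 and 8.64, 14 and 13.5 at NR3C1, so that 3 of the 4 lay below the list median. All NR3C1 and SLC2A6 peaks lay below the medians of their lists, and those of INSR, TXNIP and SLC2A1 supplied the 4 IKAROS peaks in the top 10%.

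IKAROS heights were compared between regions with and without AIOLOS or MTA2. With MTA2 in the region, the 14 IKAROS peaks had a median height of 43.8 (11.1 to 411.9), and the 20 without it 20.1 (7.27 to 59.9). The corresponding medians over the whole list were 38.1 and 15.0. With AIOLOS, 27 IKAROS peaks had a median of 28.2, and the 7 without it 18.8. The 6 IKAROS peaks in regions with OCAB had heights of 13.3, 13.7, 15.4, 20.5, 42.3 and 45.8, so 3 of them lay below the list median of 20.5. Centres of IKAROS and AIOLOS peaks lay a median of 40.5 bp apart in the 26 shared regions, beside 33 bp over the series, and IKAROS and MTA2 centres 44.5 bp apart in 14 regions, beside 42 bp. The ranges of the groups overlap, and with 1 library per antibody these values are descriptions of the peaks listed.

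NuRD subunits were not always accompanied by the IKAROS factors. Of the 31 regions with a subunit, 13 (41.9%, 26.4 to 59.2) held neither IKAROS nor AIOLOS, beside 32.6% of such regions in the series. INSR had 6 of the 13, NR3C1 4, and SLC2A6, HK2 and TXNIP 1 each. This count depends on the overlap rule, since some of the 13 lay close to a region with IKAROS or AIOLOS. The gap was 44 bp at an INSR region, 105 bp at SLC2A6, 223 bp at TXNIP, and 262 and 308 bp at NR3C1. The nearest of the others, at HK2, was 1021 bp away. At SLC2A1 and SLC2A3 every region with a subunit held MTA2 and also both factors. In the series, 77.0% of MTA2 peaks lay with IKAROS and 70.1% with AIOLOS. The share with both was not computed, and the difference was not tested. AIOLOS occurred without IKAROS in 3 regions, all at INSR. These AIOLOS peaks were 5.56-, 7.28- and 6.61-fold over input, and all are lost at an 8-fold limit. The other 27 of the 30 AIOLOS peaks (90%, 74.4 to 96.5) lay with IKAROS, beside 86.5% in the series.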

How the data were processed

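Each of 7 ChIP-seq libraries of 697 cells has 1 peak list, deposited by the authors on hg19. The submitters' processing notes name CASAVA (1.8.2 and 1.4), Bowtie2 2.3.2.2 and HOMER 4.9.1. Per the file headers, HDAC2 peaks had to reach 4-fold over input and 4-fold over the local 10000 bp, with p-values of at most 0.0001 and a false discovery rate of 0.001. For the remaining lists the settings were not given in the sources used here.

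The authors deposited height as a signal (tags per 10 M library tags), input tags as a signal, and fold over input as a ratio. The tag count of a peak is deposited as whole numbers in 5 lists. For IKAROS and MTA2 it is deposited scaled to input depth, and whole tags were recovered by the scale step; 100% of values under 40 came within 0.1 tag of a whole number. The p-value over input in each deposited list is HOMER's. Depth, from tags and heights, ran from 10.9 M (HDAC2) to 23.4 M tags (IKAROS).

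Windows on hg19 were those given with the choice of the 7 genes, and their basis is not stated; peaks overlapping by at least 1 bp were merged. Merging, window and tag code was tested on simulated data. Shares have Wilson and heights exact Poisson 95% intervals. No test between proteins was possible with 1 library each. Density tiles have the window's width. The text names all 7 genes and, for each, the region with the most proteins (ties by the highest rank of any of its peaks in its list), all regions with 5 or more, and the highest peak of each list; other regions are described to complete each gene. Genes and lists were chosen with earlier results of these data known. No hg19 annotation was used, so no region is called a promoter, exon or intron, and further pathway genes were not analysed here. Python 3.11.15, numpy 2.4.6, pandas 2.3.3, scipy 1.17.1 and matplotlib 3.10.9 were used.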

Additional observations from a re-analysis of the deposited data

How the results depend on the processing

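Alternatives were a limit of at least 8-fold over input, a common p-value limit of 1e-10, the 2000 highest peaks of each list, peak centres inside the window, and grouping of peaks whose centres lie within 100 bp. Leaving out the HDAC2 list or the INSR window was added after seeing the data. With 2000 peaks per list, 19 of the 122 peaks and 13 regions were left, 15.4% of them with IKAROS and AIOLOS and 1 with 5 or more proteins. Grouping by centres gave 67 regions, 35.8% of them with both factors. Regions with 5 or more proteins numbered 3 at 8-fold, where the 6-protein regions of SLC2A1 and INSR held 4 and 3 proteins. The number was 2 without the HDAC2 list and 2 without INSR, whose omission left 27 regions in all. The other shares stayed within their main intervals under these alternatives. Peak centres inside the window changed none of the counts, and the common p-value limit kept 115 peaks. Heights recomputed from tags give no independent check, since depth was itself taken from tags and heights. HDAC2 had the shallowest library, and the part of depth in the peak calls was not tested. No paired analysis was possible because each antibody had 1 library.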
